A study of Mus musculus with 10 samples.

Results

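The genes described here are the 39 Hox genes of the mouse, taken as all protein-coding genes whose symbol is Hox followed by a cluster letter (a, b, c or d) and a number. They are 39 of 21974 protein-coding genes and of 55487 genes in all in the deposited tables. Of them, 11 lie in the Hoxa cluster, 10 in Hoxb, 9 in Hoxc and 9 in Hoxd. The cells were E14, an established mouse embryonic stem cell line, unperturbed and of one condition. They were grown in medium with 15% FBS, LIF, a GSK inhibitor at 3 µM and a MEK1/2 inhibitor at 1 µM. The series has 10 samples in 6 groups. The 7 samples of the MapR and BisMapR groups, which map R-loops, were not analysed here, and the 3 replicates of RNA-seq from total RNA depleted of ribosomal RNA are used. The labels do not say whether the replicates were separate cultures, so their spread may be technical. No group was available to compare with, so levels are compared between genes, clusters and positions, against the SD of the 3 replicates.

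Hox genes encode transcription factors that bind DNA through a homeodomain and set the identity of cells along the head-to-tail axis of the embryo. The genes of a cluster lie side by side and are transcribed in the same direction. They are numbered by paralogue group from 1, at the 3′ end of the cluster, to 13, at its 5′ end, and genes with the same number in different clusters descend from one ancestor. In the embryo, genes near the 3′ end are switched on earlier and farther towards the head than genes near the 5′ end. In embryonic stem cells the clusters are known as targets of Polycomb complexes, which hold developmental genes at low levels, and retinoic acid is known to switch Hox genes on.

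Library totals were 11420425 estimated counts in replicate 1, 6467405 in replicate 2 and 5787357 in replicate 3. The replicates differed by gene length: over the 7877 protein-coding genes averaging 100 counts or more, the rank correlation (Spearman's rho) of a replicate's deviation from the gene's mean with length was 0.448, 0.216 and -0.446 in replicates 1, 2 and 3. The median deviation (log2) in the top decile of length was 0.18, 0.10 and -0.27, and in the bottom decile -0.08, 0.02 and 0.07. Genes of greater length were thus relatively high in replicate 1 and low in replicate 3, and results that rest on either are given also without it. All 8 listed pluripotency markers had a mean of at least 1 TPM (a transcript level per unit of length, scaled to the same total in each library), with a median of 41.5 TPM. Of 12 embryonic fibroblast markers, listed because feeder fibroblasts can be present in stem cell cultures, 1 reached a mean of 1 TPM. That gene was Thy1, at 2.50 ± 1.15 TPM (SD, n = 3). The fibroblast markers Col3a1, Dcn, Lum and Postn had 0 counts in every replicate. Of the 12, 7 had 3 counts or fewer in every replicate. Another 4, Thy1, Pdgfrb, Fbn1 and Twist1, had more than 3 in every replicate. Pdgfrb was at 0.977 ± 0.435 TPM, Fbn1 at 0.310 ± 0.147 TPM and Twist1 at 0.303 ± 0.0404 TPM (SD, n = 3). The summed level of the 12 was 5.38, 4.95 and 2.23 TPM in replicates 1, 2 and 3. The summed level of 8 mesoderm markers was 0.58 to 1.00 TPM, that of 8 endoderm markers 0.21 to 0.54 TPM and that of 8 neuroectoderm markers 11.9 to 18.2 TPM. Most of the last was Tubb3, at 11.6 ± 2.47 TPM (SD, n = 3).

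Hox genes as a group were at a low level. Their median of mean TPM was 0.15, with quartiles of 0.05 and 0.363, against a median of 0.457 over all protein-coding genes. The median log2(TPM + 1) was 0.21 ± 0.10 (SD, n = 3) for Hox genes and 0.53 ± 0.11 (SD, n = 3) for protein-coding genes. Of the 39 Hox genes, 2 (5.13%) reached a mean of 1 TPM, where 44.1% of protein-coding genes did. Hoxc13 was the highest. The highest Hox gene, at 1.49 TPM, was below the upper quartile of protein-coding genes, 4.74 TPM.

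Most Hox genes were nevertheless not at 0. A value of 3 counts or fewer in a replicate was taken as the floor, below which genes cannot be ordered. Of the 39 genes, 15 (38.5%) were above 3 counts in every replicate, against 56.1% of protein-coding genes. A further 12 were above the floor in 1 or 2 replicates. The other 12 (30.8%) were at or below it in every replicate, against 36.7% of protein-coding genes. Of these, 7 had counts but never more than 3. The remaining 5 (12.8% of the 39) had 0 counts in every replicate, against 26.2% of protein-coding genes. Over all genes and replicates, 50 of 117 values were at or below the floor. The number above it was 26, 24 and 17 in replicates 1, 2 and 3, in the order of library size. Without replicate 3 the count of 15 became 24. More than 3 counts in at least 1 replicate were seen for 27 Hox genes (69.2%), against 63.3% of protein-coding genes. Counts above 0 in every replicate were also seen for 27 (69.2%), against 63%. On these 2 measures the Hox share was thus the higher. Between every replicate and at least 1, the share above 3 counts rose from 38.5 to 69.2% in Hox genes. In protein-coding genes it rose from 56.1 to 63.3%. Protein-coding genes held 17.3 to 22.9% of deposited TPM and 76.4 to 82.7% of counts, so noncoding genes weigh on the TPM scale. CPM is the count scaled to the library total, with no length scaling. By CPM, 15 of the 39 Hox genes (38.5%) had a mean of at least 1, against 55.2% of protein-coding genes. Rescaling TPM over protein-coding genes alone put 19 of the 39 Hox genes at a mean of at least 1, against 56.5% of protein-coding genes.

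**Figure D1:**
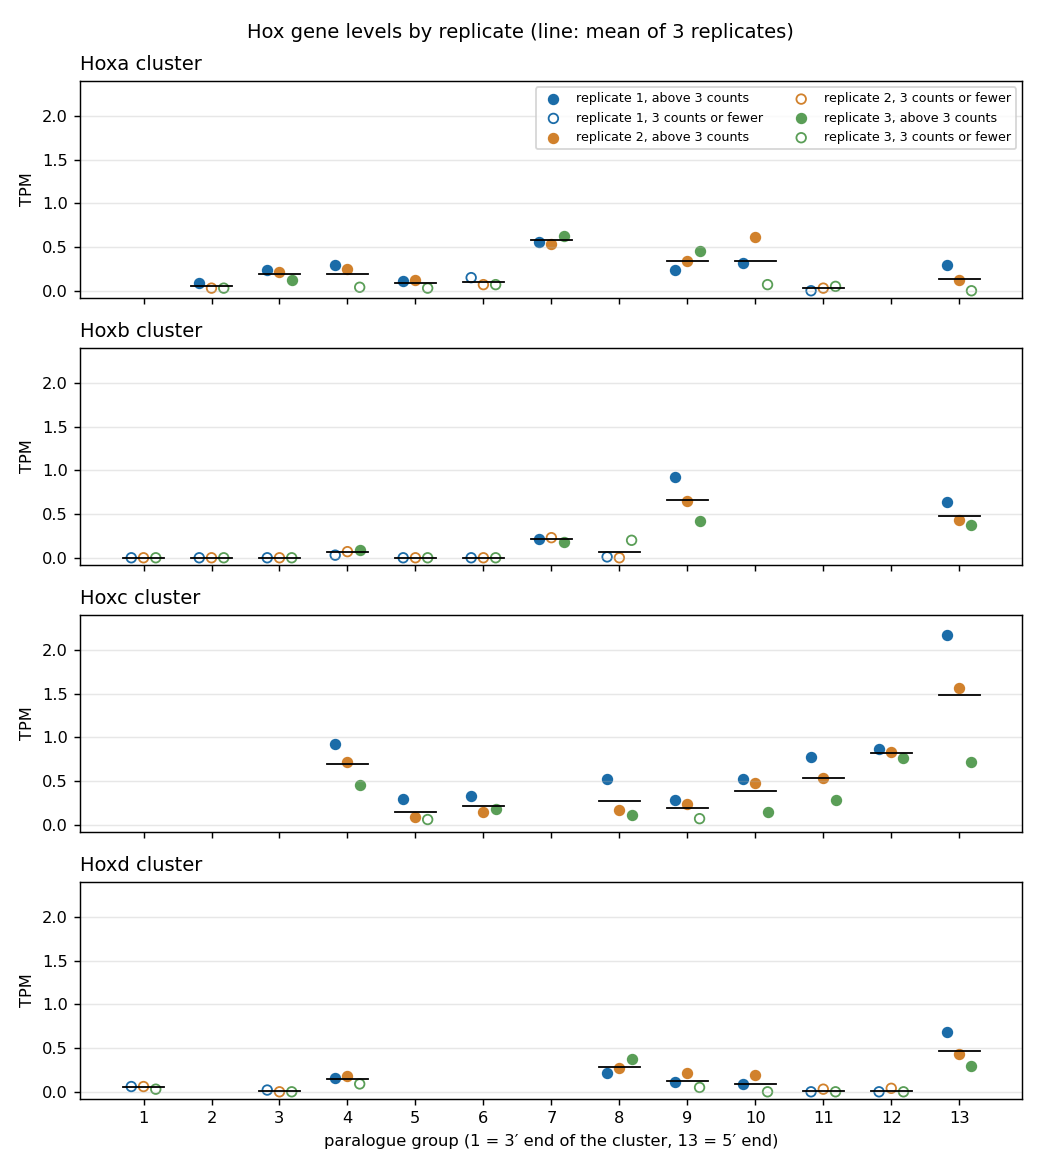
Level of each Hox gene in TPM (y axis) by paralogue group (x axis) in the 4 clusters; points are the 3 replicates, filled where the gene had more than 3 counts, and lines are means. Hoxc13 has the highest mean, at 1.49 TPM, 1 gene is not shown, and 5 genes of the Hoxb cluster lie at 0 in every replicate.

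Promoters of 4 Hox genes, 1 from each cluster, are shown to place the levels beside the sequence at a RefSeq start of each gene. Hoxc4, Hoxa7 and Hoxd13 were among the 12 Hox genes with the highest levels, and Hoxb1 had 0 counts in every replicate; they were chosen after these levels were seen. Each window runs from 250 bases before to 50 bases after the RefSeq start of the gene (GRCm38.p6), 5′ to 3′ on the gene's strand, with CpG dinucleotides in capitals.
Hoxc4 (chr15:103034145-103034444, plus strand): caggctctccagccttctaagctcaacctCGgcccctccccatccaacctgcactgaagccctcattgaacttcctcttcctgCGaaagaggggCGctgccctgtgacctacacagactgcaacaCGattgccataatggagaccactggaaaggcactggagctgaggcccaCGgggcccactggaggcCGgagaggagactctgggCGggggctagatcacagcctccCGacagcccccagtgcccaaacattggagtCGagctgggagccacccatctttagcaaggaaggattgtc
Hoxa7 (chr6:52218524-52218823, minus strand): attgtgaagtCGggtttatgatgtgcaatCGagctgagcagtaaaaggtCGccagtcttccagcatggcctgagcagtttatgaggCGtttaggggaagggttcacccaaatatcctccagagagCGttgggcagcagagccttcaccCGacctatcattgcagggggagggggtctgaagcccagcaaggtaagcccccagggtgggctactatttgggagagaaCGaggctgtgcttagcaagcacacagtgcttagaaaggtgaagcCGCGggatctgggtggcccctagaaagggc
Hoxd13 (chr2:74667975-74668274, plus strand): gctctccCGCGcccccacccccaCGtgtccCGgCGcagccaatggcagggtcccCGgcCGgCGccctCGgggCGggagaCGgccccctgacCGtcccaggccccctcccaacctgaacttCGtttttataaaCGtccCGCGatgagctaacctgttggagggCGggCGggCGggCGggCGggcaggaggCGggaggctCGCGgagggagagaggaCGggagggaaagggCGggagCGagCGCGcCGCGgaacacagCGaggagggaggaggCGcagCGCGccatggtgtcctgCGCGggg
Hoxb1 (chr11:96365508-96365807, plus strand): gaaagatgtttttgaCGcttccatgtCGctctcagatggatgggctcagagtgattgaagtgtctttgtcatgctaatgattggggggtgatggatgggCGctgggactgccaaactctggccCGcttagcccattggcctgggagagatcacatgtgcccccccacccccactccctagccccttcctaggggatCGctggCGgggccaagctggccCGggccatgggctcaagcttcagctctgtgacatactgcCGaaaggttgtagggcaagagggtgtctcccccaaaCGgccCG

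The 4 windows differed widely in CpG content, and not in the order of the levels. Hoxd13 held 37 CpG, Hoxb1 10, Hoxc4 9 and Hoxa7 9. RefSeq windows were matched for 22 of the 39 genes, in 24 windows. Their median GC content was 57.7%, against 52.7% over all 32851 windows, and their median ratio of observed to expected CpG was 0.626, against 0.384. Among the 6 windows of genes above 3 counts in every replicate this ratio had a median of 0.386 (range 0.28 to 0.904). Among the other 18 it was 0.77 (range 0.257 to 1.02). The 6 windows cover 6 of the 15 genes above 3 counts in every replicate, and Hoxc13, Hoxc12 and Hoxb9 are among those without one. The 2 medians thus do not describe the promoters of detected Hox genes in general. Some windows lie inside the gene's annotated body, such as those of Hoxc4, Hoxa7 and Hoxa9 in the first set and of Hoxd4 in the second. The level of such a gene can include transcripts from other starts. The TATA box letters TATAAA, searched on both strands, were in 4 of 24 Hox windows (16.7%) and in 13.6% of all windows; Hoxd13 was one of the 4. TGATTNAT is 1 form of the sites bound by Hox proteins with PBX partners. It was in 2 of 24 Hox windows (8.33%), those of Hoxa2 and of Hoxd11, and in 3.22% of all windows. Other forms were not searched, so a window without these letters may hold one. The letters AGGTCA followed by 5 bases and AGGTCA again, a form bound by retinoic acid receptors, were in 0 of 24 and in 0.00913% of all windows. None of the 3 motifs contains another, and a match is a description of the window.

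The highest member was Hoxc13 (ENSMUSG00000001655, chromosome 15, 102921103 to 102928814), known for its role in hair and nail formation. Its level was 2.17, 1.57 and 0.72 TPM in replicates 1, 2 and 3, from 137, 69 and 32 counts. Replicate 1 was the highest and replicate 3 the lowest, so the mean of 1.49 ± 0.729 TPM (SD, n = 3) carries a wide error. Without replicate 1 the number of Hox genes at a mean of 1 TPM or more was 1, Hoxc13.

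Hoxc12, a neighbour of Hoxc13 at the 5′ end of its cluster, was at 0.87, 0.83 and 0.76 TPM from 21, 14 and 13 counts, a mean of 0.820 ± 0.0557 TPM (SD, n = 3). Its replicates lay closer together than those of Hoxc13. Hoxc4, at the opposite end of the Hoxc cluster, was at 0.92, 0.72 and 0.45 TPM from 46, 25 and 16 counts. Hoxb9, which takes part in patterning the ribs, was at 0.93, 0.65 and 0.42 TPM from 57, 26 and 19 counts. For both genes replicate 1 was highest and replicate 3 lowest. Hoxa7, which patterns vertebrae, was at 0.56, 0.54 and 0.63 TPM from 18, 12 and 18 counts, with replicate 3 highest.

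The next genes described, also among the 12 with the highest means, were all of paralogue groups 9 to 13. Hoxc11, active in the hindlimb, was at 0.78, 0.53 and 0.28 TPM, and Hoxc10, used by hindlimb motor neurons, at 0.52, 0.48 and 0.15 TPM. Hoxb13, a gene of the tail and prostate, was at 0.64, 0.43 and 0.38 TPM. Hoxd13, which shapes digits, was at 0.68, 0.43 and 0.29 TPM. In each of these 4 genes replicate 1 was highest and replicate 3 lowest. Hoxa9, a regulator of blood progenitors, was at 0.24, 0.34 and 0.45 TPM although its counts were 13, 5 and 4. The replicate with the most counts thus had the lowest TPM; the effective length that the deposited tables give the gene was 2039, 769 and 464 nt. Hoxa10, a gene of the uterus and hindlimb, was at 0.32, 0.62 and 0.07 TPM from 12, 18 and 3 counts. The 12 genes with the highest means held 74.8% of the summed mean TPM of the 39.

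The order of the levels was not resolved from one gene to the next. Among 33 neighbouring pairs in the order of mean TPM, the replicate ranges overlapped in all 33. The higher gene was higher in 3 of 3 replicates in 1 pair. Effective length differed by more than 1.5 times between replicates for 8 genes, Hoxa9, Hoxa10, Hoxa13, Hoxb7, Hoxb8, Hoxc5, Hoxd8 and Hoxd11, so their TPM values depend on how reads were divided among transcripts. The bodies of 11 members overlap another Hox gene in the annotation, as that of Hoxc5 does with Hoxc6, Hoxc8, Hoxc9 and Hoxc10, and the values of these genes are uncertain to that extent. The bodies of 14 members overlap a gene on the opposite strand. The libraries were directional, but use of strand in the counting is not given in the sources used here. All 117 counts of Hox genes were whole within 0.005.

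Genes above the floor in every replicate ended with Hoxd8, Hoxc8, Hoxc6 and Hoxa3. Hoxc8 and Hoxc6, which are known to pattern motor neurons at the level of the forelimb and trunk, were at 0.267 ± 0.221 and 0.220 ± 0.0964 TPM (SD, n = 3). Hoxd8 was at 0.283 ± 0.0808 TPM and Hoxa3, needed for the thymus and parathyroid, at 0.193 ± 0.0643 TPM (SD, n = 3). The 12 genes above the floor in 1 or 2 replicates ran from 0.05 to 0.337 TPM and included Hoxa2, which gives the second branchial arch its identity, and Hoxa5, a gene of the developing lung. Hoxa13, a gene of digits and genitalia, had 18, 5 and 0 counts. The 7 genes with counts but never more than 3 were Hoxa6, Hoxa11, Hoxb8, Hoxd1, Hoxd3, Hoxd11 and Hoxd12, with means of 0.00667 to 0.0967 TPM.

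The 5 genes at 0 counts in every replicate were all in the Hoxb cluster, Hoxb1, Hoxb2, Hoxb3, Hoxb5 and Hoxb6. Hoxb1 and Hoxb2 are known for setting the identity of hindbrain segments. Hoxb4, which lies between Hoxb3 and Hoxb5 and is known from blood stem cells, had 2, 3 and 4 counts. For the 5 genes, 3 counts would have given 0.0493 to 0.123 TPM, depending on the gene and replicate. The floor is not a limit of detection, since Hoxb4 gave 2 counts at 0.03 TPM in replicate 1. How low a level the 0 counts allow was not estimated. The floor covers counting error alone.

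The next comparison was between the 4 clusters. Hoxc (chromosome 15, 102921103 to 103036852) had the highest summed level, at 6.69, 4.78 and 2.78 TPM in replicates 1, 2 and 3. Hoxa, on chromosome 6, followed at 4.14, 3.23 and 2.34 TPM. Hoxb (chromosome 11, 96194316 to 96368256) was at 1.83, 1.38 and 1.27 TPM. Hoxd (chromosome 2, 74668310 to 74765142) was at 1.33, 1.41 and 0.83 TPM. The ranges of Hoxc and Hoxa overlapped each other, as did those of Hoxb and Hoxd, while both of the first pair lay above both of the second.

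**Figure D2:**
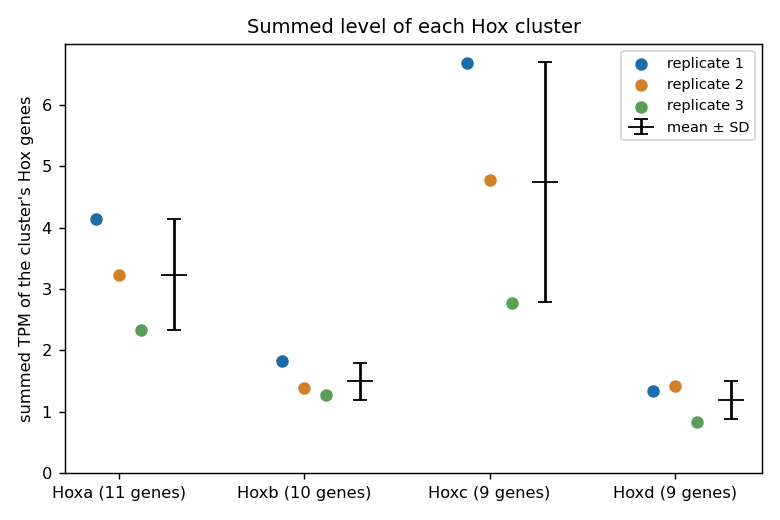
Summed TPM of the Hox genes of each cluster (y axis), with the 3 replicates as points and the mean ± SD beside them. Hoxc, at 2.78 to 6.69 TPM, and Hoxa, at 2.34 to 4.14 TPM, lie above Hoxb and Hoxd, which do not exceed 1.83 TPM.

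Within libraries, Hoxc was above Hoxb by 1.15 ± 0.37 and above Hoxd by 1.34 ± 0.35 in log2(TPM + 1) (SD, n = 3), each in 3 of 3 replicates. Hoxa was above Hoxb by 0.75 ± 0.17 and above Hoxd by 0.94 ± 0.18 (SD, n = 3), also in 3 of 3. Hoxa was below Hoxc in 3 of 3 replicates, with a difference of -0.40 ± 0.21 (SD, n = 3). Hoxb was above Hoxd in 2 of 3 replicates, by 0.19 ± 0.18 (SD, n = 3). The exact two-sided sign-flip permutation test gave p = 0.25 for the first 5 pairs, the smallest that 3 replicates allow, and p = 0.5 for Hoxb against Hoxd. Adjusted over the 6 pairs (Benjamini-Hochberg), these exact p-values were 0.3 and 0.5, so no pair passed and none could have.

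The clusters also differed in how many of their genes were detected. In Hoxc, 7 of 9 genes were above 3 counts in every replicate and the lowest, Hoxc5, had a mean of 0.15 TPM. In Hoxa the number was 4 of 11, in Hoxb 2 of 10 and in Hoxd 2 of 9. The leading gene held 31.3% of the cluster's summed TPM in Hoxc (Hoxc13), 44.6% in Hoxb (Hoxb9) and 39.2% in Hoxd (Hoxd13). Without its leading gene Hoxc was at 3.26 TPM, Hoxb at 0.827 and Hoxd at 0.723. Without replicate 3 the sums of all members were 5.74 TPM in Hoxc, 3.69 in Hoxa, 1.61 in Hoxb and 1.37 in Hoxd, and without replicate 1 they were 3.78, 2.79, 1.33 and 1.12.

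By counts, Hoxc held 47.3% of all Hox counts in replicate 1, 46.2% in replicate 2 and 39.1% in replicate 3. The Wilson 95% intervals of these shares were 43.7 to 51.0, 41.1 to 51.3 and 33.1 to 45.6%. Hoxa held 27.5% (24.4 to 30.9), 27.2% (22.9 to 32.0) and 29.6% (24.0 to 35.8) in the same order. Intervals cover counting error alone, since PCR copies are not independent molecules, and for each of the 2 clusters the 3 intervals overlapped. Hox genes in all held 716, 364 and 230 counts, or a CPM of 62.7, 56.3 and 39.7. Replicate 3 was thus the lowest on a scale that allows for depth. Of the 15 genes above the floor in every replicate, 10 were lowest in replicate 3 in CPM. The share of all protein-coding genes lowest there was not counted, so whether 10 of 15 is particular to Hox genes was not tested. Protein-coding genes held 82.7, 81.5 and 76.4% of counts in replicates 1, 2 and 3. With CPM scaled to protein-coding counts in place of the library total, the Hox values were 75.8, 69.1 and 52.0. The length trends of replicates 1 and 3, in opposite directions, move with these values, and their part in them was not tested. The median length of the Hox genes was 1973 nt, against 2418 nt over the 7877 genes.

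Variation of single genes between replicates was tested in a fit over all genes. Of the 39 Hox genes, 9 passed the filter on low counts, and 0 of these 9 varied beyond the dispersion trend at an adjusted p under 0.05 by edgeR's goodness of fit (chi-square, adjusted over all genes), against 1.84% of the 12577 genes tested. None had an unadjusted p under 0.05, a count of 0, and DESeq2's dispersion outliers included 0 of the 9. The smallest unadjusted p by edgeR was that of Hoxc13, 0.101 (adjusted p by edgeR 1.000). A test of 9 genes at these counts leaves differences of the size seen in Hoxc13 below the threshold, and does not show that the replicates were alike.

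Position within the cluster was compared by paralogue group. The 16 posterior genes (groups 9 to 13) held 57.3% of summed Hox TPM, the 15 central genes (groups 4 to 8) 28.7% and the 8 anterior genes (groups 1 to 3) the rest. The median of mean TPM was 0.34 in posterior, 0.15 in central and 0.0283 in anterior genes. Above 3 counts in every replicate were 8 of 16 posterior, 5 of 15 central and 2 of 8 anterior genes. Hoxc, the cluster with the highest sum, has no anterior gene, and the anterior genes of Hoxb were at 0 counts. Position can therefore not be fully told apart from cluster. In mean log2(TPM + 1), anterior minus posterior was -0.23 ± 0.09 (SD, n = 3), negative in 3 of 3 replicates (exact two-sided sign-flip permutation p = 0.25, the smallest possible). The difference was -0.081 ± 0.084 without the Hoxb cluster (SD, n = 3), -0.10 without Hoxc and -0.45 without Hoxa. Among the 27 genes above 3 counts in at least 1 replicate it was -0.03 ± 0.10 (SD, n = 3, exact permutation p = 1). On other scales the difference over all members was larger, -0.67 in CPM, -0.77 with TPM rescaled over protein-coding genes and -0.999 with a pseudocount of 0.1. It was -0.21 without replicate 1 and -0.27 without replicate 3. Its size therefore depended on the scale and on which clusters and genes were counted.

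**Figure D3:**
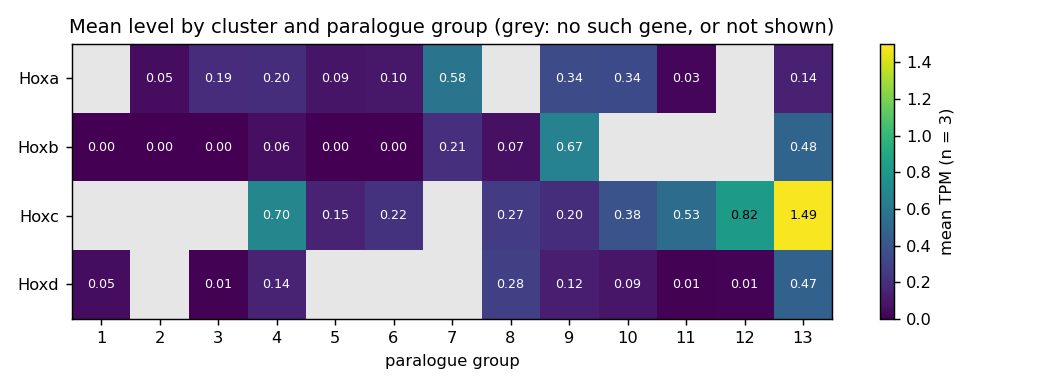
Mean TPM over 3 replicates of each Hox gene, by cluster (rows) and paralogue group (columns), with grey where the cluster has no such gene or it is not shown. Hoxc has its highest value, 1.49 TPM, at group 13.

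Levels along each cluster were described by rank. Spearman's rho of mean TPM with paralogue number was 0.394 over the 39 genes, as a description across genes of the same libraries. It was 0.834 over the 10 genes of Hoxb, 0.6 over the 9 of Hoxc, 0.217 over the 9 of Hoxd and -0.155 over the 11 of Hoxa. These ranks include genes that the floor leaves unordered, 6 in Hoxb (5 of them tied at 0), 4 in Hoxd and 2 in Hoxa, so the values of rho are not compared between clusters. In Hoxc, means went down from Hoxc13 at 1.49 TPM through Hoxc12 at 0.820, Hoxc11 at 0.530 and Hoxc10 at 0.383 to Hoxc9 at 0.197 TPM. In Hoxa, Hoxa2 was at 0.05 ± 0.0346 TPM (SD, n = 3). In Hoxb, Hoxb1 to Hoxb6 were at 0 counts except Hoxb4, at 0.0633 TPM. Hoxb8 was at 0.07 TPM, Hoxb7 at 0.210 ± 0.0265 TPM (SD, n = 3) and Hoxb9 and Hoxb13 higher, at 0.667 and 0.483 TPM.

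Paralogue groups were compared across clusters. Group 13, whose genes pattern the tail end and the digits, was highest in sum, at 2.57 ± 1.20 TPM (SD, n = 3) over 4 genes. It was the group with the most genes above the floor in every replicate, 3 of 4, Hoxa13 being the exception. Group 9 was at 1.33 ± 0.301 TPM over 4 genes (SD, n = 3). Group 2 was lowest, at 0.05 ± 0.0346 TPM (SD, n = 3) over 2 genes. Group 7, with Hoxa7 and Hoxb7, gave 0.78, 0.77 and 0.81 TPM, with the smallest SD of the 13 groups, 0.0208 TPM. This closeness belongs to the TPM scale. Hoxb7 had 7, 2 and 4 counts, at effective lengths of 1154, 460 and 1158 nt. In CPM Hoxa7 was at 1.58, 1.86 and 3.11 and Hoxb7 at 0.613, 0.309 and 0.691, with replicate 3 the highest for both.

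Of the 24 protein-coding genes nearest to the clusters, 3 on each side of each, 20 had a mean of at least 1 TPM and each of those 20 was above Hoxc13. These 20 lay 60.7 to 910.4 kb from the cluster. The median of the 24 was 12.5 TPM. Skap2, the nearest at lower coordinates than Hoxa, was at 19.2 ± 4.59 TPM, and Mtx2, the nearest beyond Hoxd1 at 60.7 kb, at 12.98 ± 0.705 TPM (SD, n = 3). The other 4 were each the gene next to a cluster on one side, and included the 3 nearest of all. The homeobox genes Evx2, 8.75 kb from Hoxd13, and Evx1, 52.6 kb from Hoxa13, are relatives of the Hox genes and had 0 counts in every replicate. The genes next to Hoxb were Ttll6, at 28.9 kb and 0.380 ± 0.128 TPM (SD, n = 3), and Skap1, at 96.3 kb with 1, 2 and 0 counts.

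**Figure D4:**
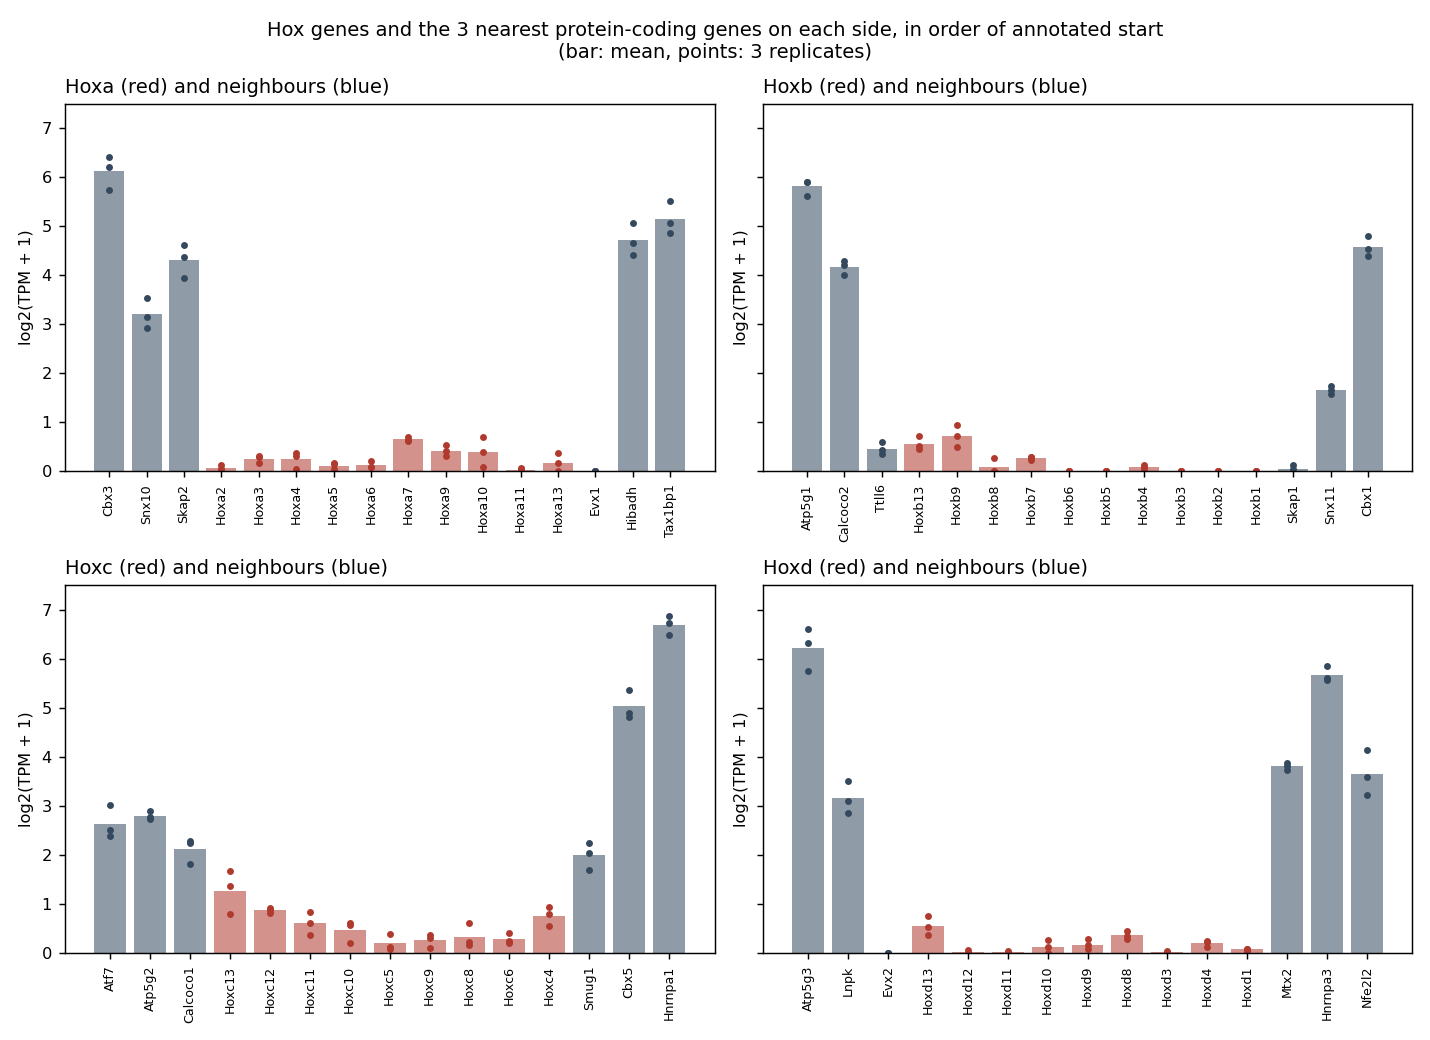
Level in log2(TPM + 1) (y axis) of the Hox genes (red, 1 not shown) and the 3 nearest protein-coding genes on each side (blue), in the order of annotated starts (x axis); bars are means and points the 3 replicates. Of the 24 neighbours, 20 are above every Hox gene, and Evx1 and Evx2 are at 0.

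Noncoding RNA genes of the clusters were mostly undetected. Of 43 noncoding records that overlap a cluster's span, 28 had 0 counts in every replicate, 3 had more than 3 counts in some replicate, and 1 had more than 3 in every replicate. That gene was Gm53, a lincRNA gene between Hoxb13 and Hoxb9 (chromosome 11, 96251105 to 96264868). It was at 6.17, 4.36 and 2.99 TPM from 294, 146 and 106 counts, above every Hox gene in each replicate and above the sum of the Hoxb genes. The other 2 were Hoxaas2, with 9, 4 and 3 counts, and Gm15050, with 5, 2 and 1 counts. The same shares over all noncoding genes were not counted, so whether these numbers are particular to the clusters was not tested. The noncoding RNA genes Hottip, Hoxb5os and Hoxd3os1 had 0 in every replicate. The microRNA genes Mir10a, Mir10b, Mir196a-1, Mir196a-2, Mir196b and Mir615 also had 0 counts, in libraries that were not made for RNAs of that size. Halr1, a long noncoding RNA gene outside the span and known as a regulator of the Hoxa cluster, was at 17.22, 13.94 and 14.35 TPM, from 159, 85 and 91 counts. Replicate 1 was the highest in TPM, and the mean was 15.2 ± 1.79 TPM (SD, n = 3). In CPM Halr1 was at 13.9, 13.1 and 15.7, with replicate 3 the highest.

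Genes that act on or with Hox genes were counted by list. Of 9 cofactors of the PBC and MEIS classes, which bind DNA together with Hox proteins, 5 had a mean of at least 1 TPM. Pbx2 was highest at 4.86 ± 1.22 TPM and Meis2 next at 4.15 ± 1.76 TPM, while Meis1 was at 0.267 ± 0.0513 TPM (SD, n = 3). Of 8 ParaHox and Evx genes, 1 reached 1 TPM. It was Cdx1, a regulator of Hox genes in the embryo, at 10.91, 7.89 and 6.29 TPM, above every Hox gene in each replicate, whereas Cdx2 and Cdx4 had at most 2 counts.

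Of 16 genes of the retinoic acid pathway, 6 had a mean of at least 1 TPM. These were the receptor genes Rara, at 4.81 ± 2.34 TPM, and Rarg, at 3.40 ± 0.940 TPM (SD, n = 3), with Rxra, Rxrb, Crabp1 and Crabp2. The receptor gene Rarb, itself a target of retinoic acid, was at 0.110 ± 0.0700 TPM (SD, n = 3), and Cyp26a1, which encodes an enzyme that breaks retinoic acid down, had 4, 2 and 0 counts. Of 28 genes of Polycomb complexes, 24 had a mean of at least 1 TPM, with Suz12 at 50.6 ± 15.5 TPM and Ezh2, the H3K27 methyltransferase, at 43.5 ± 10.5 TPM (SD, n = 3). All 10 genes of the trithorax and H3K27 demethylase list did, with the methyltransferase gene Kmt2a lowest together with Kdm6b, at 2.92 ± 1.77 and 2.92 ± 2.00 TPM (SD, n = 3). The median of mean TPM was 9.50 over the Polycomb list and 12.3 over the trithorax list, against 0.15 over the Hox genes.

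**Figure D5:**
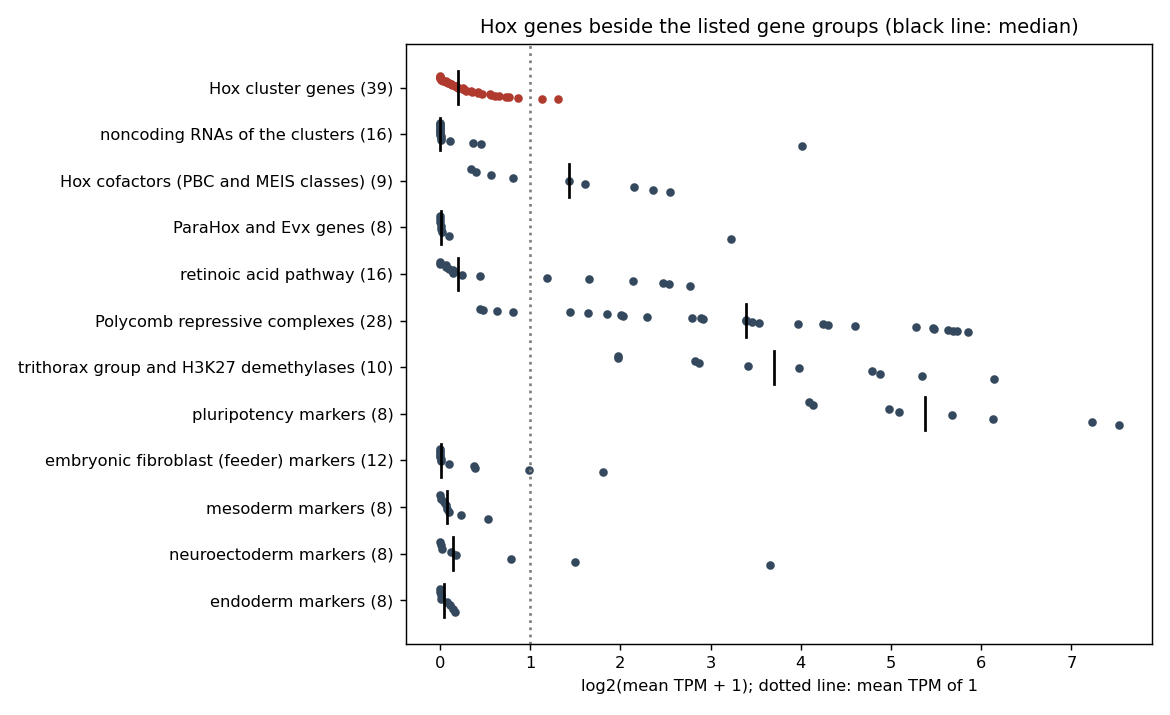
Mean TPM over 3 replicates, as log2(mean TPM + 1) (x axis), of each Hox gene (red) and each gene of the listed groups (blue), with group medians as black lines and the number of genes in brackets. The Hox median is 0.15 TPM, and 2 Hox genes lie beyond the dotted line at 1 TPM, against 24 of 28 Polycomb genes.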

How the data were processed

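RNA-seq libraries of 3 replicates were analysed, with groups and replicate numbers taken from the titles. Per the submitters' processing notes, STAR and RSEM are among the tools used, with build mm10; versions, annotation and strand setting are not given in the sources used here. Per the file headers, the authors deposited an expected count per gene, which is not normalized, and TPM scaled by effective length to one total in every library. FPKM was not used.

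Symbols and coordinates are from GENCODE vM21 (GRCm38, the assembly also named mm10), matched by Ensembl gene ID; 55227 of 55487 IDs matched. Deposited TPM was used as given, and log2 values have a pseudocount of 1. CPM is the count over the library total, without length scaling. A floor of 3 counts is 0.263, 0.464 and 0.518 CPM in replicates 1, 2 and 3. Expected counts were rounded for edgeR 4.0.16 and DESeq2 1.42.0 in R 4.3.3. The edgeR fit was intercept-only with TMM and filterByExpr, and was tested on simulated data. Clusters and positions were compared by exact sign-flip permutation over replicates. Exact tests used scipy 1.17.1 under Python 3.11.15, tables pandas 2.3.3 and numpy 2.4.6, and figures matplotlib 3.10.9.

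The genes named are the 39 members, the listed genes, the 3 nearest protein-coding genes on each side of a cluster and noncoding genes in a cluster's span with more than 3 counts in a replicate. Members and lists were chosen with earlier results of these data known. Alternatives changed the floor, TPM limit and denominator, unit, pseudocount, position classes, clusters, normalization, filter and replicates. Of the 39, 1 gene is not reported here on its own, but counts, sums and medians include it. Promoter windows were not used here for 17 genes, among them Hoxa4, Hoxb2, Hoxb3, Hoxb5, Hoxb6, Hoxb7, Hoxb9, Hoxb13, Hoxc5, Hoxc6, Hoxc8, Hoxc9, Hoxc10, Hoxc11, Hoxc12 and Hoxc13.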

Additional observations from a re-analysis of the deposited data

How the results depend on the processing

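In all, 80 alternatives were run over 10 results, 67 planned and 13 chosen after seeing the data. Of these, 52 were counted as the same, 28 as moved and 0 as reversed. For the difference between anterior and posterior genes all 15 alternatives were counted as the same. Their values ran from -0.03 to -0.999, against -0.23 ± 0.09 (SD, n = 3), so the same does not mean within that SD. The permutation tests of clusters and positions could not pass with 3 replicates, so their alternatives say nothing about stability of a call. The count of Hox genes varying between replicates was 0 in each of its fits. Genes above 3 counts in every replicate, 15, became 25 by the mean of the replicates, 27 with more than 3 counts in some replicate, 27 with more than 0 in every replicate and 8 with more than 10, and ran from 15 to 24 leaving out one replicate. Genes with a mean TPM of at least 1, 2, became 7 at a limit of 0.5, 23 at 0.1, 19 with TPM rescaled over protein-coding genes and 15 by CPM, and were 1 or 2 leaving out one replicate. The median log2 value, 0.21, became -2.01 with a pseudocount of 0.1, 0.91 rescaled, 0.82 in CPM and 0.58 over the 15 detected genes. With rescaled TPM the sums of Hoxa, Hoxb, Hoxc and Hoxd were 19.0, 8.84, 27.6 and 7.05, and in CPM 14.8, 8.01, 23.7 and 6.39, in the same order of clusters as before. Without the highest gene Hoxa became 2.04, Hoxb 0.827 and Hoxd 0.723. These shifts follow from the scale, limit, genes or replicates used. The mean difference between anterior and posterior genes was negative in its 15 alternatives. At -0.03 among genes above 3 counts in some replicate it was smaller than its SD of 0.10. It was also smaller than its SD without the Hoxb cluster, at -0.081 against 0.084. Depth limits the low end, where 50 of 117 values were at or below the floor. No paired analysis was possible because the groups that share replicate numbers with the RNA-seq samples were not analysed here; differences between clusters and positions were already taken within each library.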

Other observations

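Several of the Hox genes with the highest levels lie at an end of their cluster, a feature noticed after the values were seen and therefore given without a test. The 8 genes that are first or last in their cluster held 42.3% of summed Hox TPM, with a median of 0.475 TPM, and the 31 interior genes 57.7%, with a median of 0.143 TPM. In mean log2(TPM + 1) the end genes exceeded the interior genes by 0.32 ± 0.14 (SD, n = 3). Above 3 counts in every replicate were 5 of 8 end genes, among them Hoxc13 and Hoxd13, and 10 of 31 interior genes. Among the other end genes, Hoxb1 had 0 counts and Hoxd1 was at 0.05 TPM, so the ends of a cluster were not alike. The difference was 0.23 without the Hoxc cluster, 0.30 without Hoxa, 0.38 without Hoxb and 0.37 without Hoxd, and ran from 0.25 to 0.38 leaving out one replicate. It was larger on other scales, 0.77 with TPM rescaled over protein-coding genes, 0.91 with a pseudocount of 0.1 and 0.93 in CPM.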
